A study of Mus musculus with 8 samples.

Results

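Hair keratins and keratin-associated proteins build the hair shaft and the sheath that moulds it. The set described here holds every gene of the deposited table whose name starts with Krtap, and the keratins of the hair shaft and root sheaths named Krt25 to Krt28, Krt31, Krt32, Krt33a, Krt33b, Krt34 to Krt36, Krt39, Krt40, Krt71 to Krt76 and Krt81 to Krt87. It counts 81 of the 21885 named genes, 57 Krtap genes and 24 keratins, and no filter on expression was applied. Krt74 and Krt85 are not analysed here. The genes were followed in 4 mouse skin libraries from MC903 plus phytic acid and 4 from MC903, which the submitters titled control. Every library therefore comes from MC903-treated skin, and no library from untreated skin was analysed here. MC903 (calcipotriol) is a vitamin D analogue that causes dermatitis when applied to mouse skin, and phytic acid is the phosphate store of plant seeds. Strain, age, sex, body site, doses, days of treatment and phase of the hair cycle are not given in the labels. Nor do the labels say whether the libraries of a group came from separate mice, so p-values measure only the spread between these libraries.

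A hair follicle cycles between rest and growth, and its matrix makes the hair during growth. The inner root sheath forms first around the new shaft and is built of its own keratins. The cells of the shaft fill with type I and type II hair keratins, paired into filaments, and with keratin-associated proteins that surround these filaments. Some of these proteins are rich in cysteine and become cross-linked to keratin through disulfide bonds, and others are rich in glycine and tyrosine. The companion layer lies between the inner and the outer root sheath.

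Values are FPKM, fragments scaled to exon length and to the mapped total of a library. Recovered library totals were 38310034 to 42997271 reads with MC903 plus phytic acid and 31676934 to 37639476 reads with MC903. At that depth a value of 0 stood for no read in the 80 genes whose values gave whole reads, all except Krt32. In whole skin, fewer cells of a type and less RNA per cell cannot be told apart.

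The 81 genes together made up a trace of the RNA in 7 libraries and a large share in 1. Their summed FPKM was 16.3, 27.5, 29.2 and 24.6 in MC903 plus phytic acid replicates 1 to 4, against 43.3, 177, 10282.5 and 38.96 in MC903 replicates 1 to 4. As a share of all FPKM this was 0.00532% to 0.00923% with MC903 plus phytic acid, against 0.0134%, 0.0523%, 3.33% and 0.0124% in MC903 replicates 1 to 4. MC903 replicate 3 stood far above every other library and MC903 replicate 2 was second. Without Krt75, the most abundant gene of the set in the other MC903 libraries, the sums of the groups overlapped: 7.02, 19.2, 24.1 and 14.3 FPKM with MC903 plus phytic acid, against 12.04, 130.4, 10199.8 and 6.53 FPKM with MC903.

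Genes with a value above 0 numbered 22, 24, 28 and 23 in the MC903 plus phytic acid libraries, against 25, 69, 79 and 26 in the MC903 libraries. Genes at 1 FPKM or more numbered 2, 4, 4 and 4 with MC903 plus phytic acid, against 6, 25, 78 and 2 with MC903. So most of the set was at 0 or at trace level in MC903 plus phytic acid and in MC903 replicates 1 and 4, nearly all of it had 1 FPKM or more in MC903 replicate 3, and MC903 replicate 2 lay between. Of the 81 genes, 45 were at 0 in all MC903 plus phytic acid libraries, and 39 were at 0 there and in MC903 replicates 1 and 4. The heat map of all members shows this as 1 bright column.

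**Figure D1:**
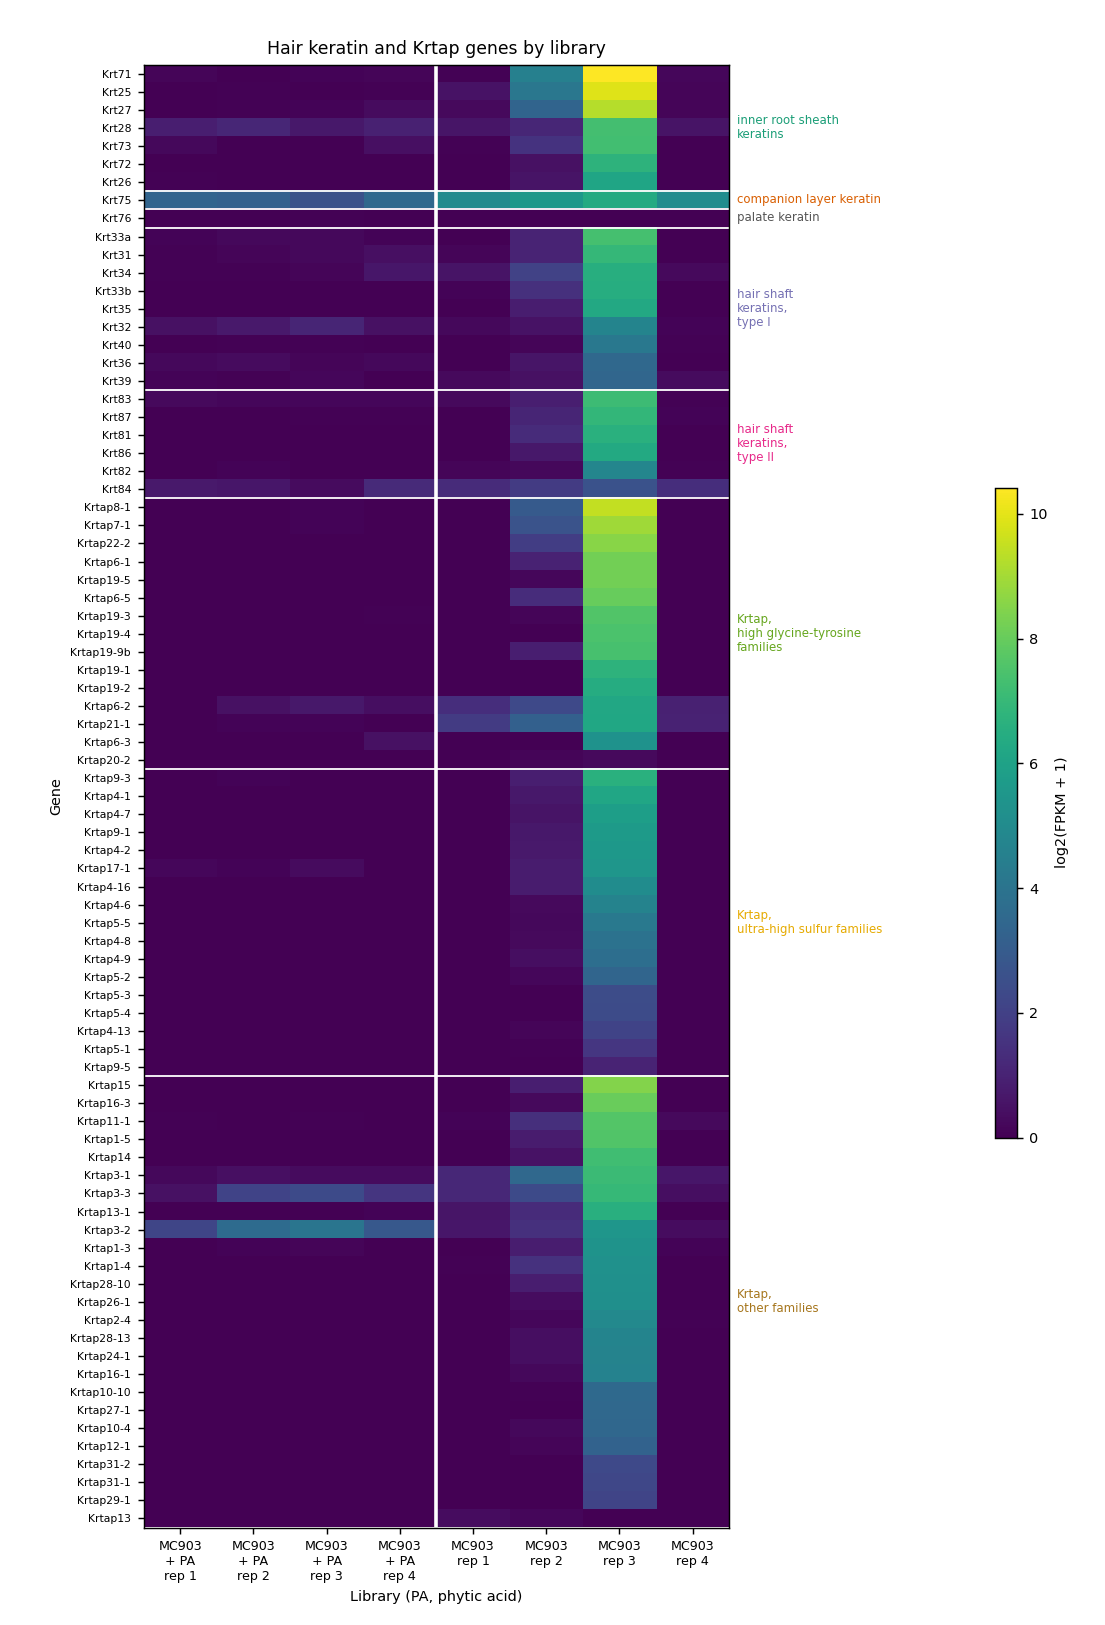
Heat map of log2(FPKM + 1) for the 81 genes (down the page, by role and by level in MC903 replicate 3) in the 4 MC903 plus phytic acid libraries (left) and the 4 MC903 libraries (right). MC903 replicate 3 has 78 genes at 1 FPKM or more, MC903 replicate 2 has 25, and the other 6 libraries have 2 to 6.

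MC903 replicate 3 was singled out after the values were seen, so the following counts are descriptions. It held the highest value of 79 of the 81 genes, against 17.6% of all 18483 genes with a value. In 74 of the 81 its value was at least 10 times that of the next library, against 1.69% of all genes, and the median ratio to the next library over the 79 genes was 92.8. The next library was MC903 replicate 2 in 64 of the 79, and 9 genes had reads in MC903 replicate 3 alone. The exceptions were Krt76, a keratin of the palate, at 0.0212 and 0.0402 FPKM in MC903 plus phytic acid replicates 1 and 3 and at 0 elsewhere, and Krtap13, at 0.283 and 0.140 FPKM in MC903 replicates 1 and 2 and at 0 elsewhere.

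Within the set, the inner root sheath supplied the most abundant keratins of MC903 replicate 3. Krt71, a type II keratin of the inner root sheath whose mutation gives mice a wavy coat, had 0.0898, 0, 0.0638 and 0.0897 FPKM in MC903 plus phytic acid libraries, against 0.0289, 22.3, 1373 and 0.135 FPKM in MC903 libraries. Krt25, a type I keratin of the same sheath, had 0, 0.0525, 0.0234 and 0.0370 FPKM with MC903 plus phytic acid, against 0.413, 16.5, 959 and 0.108 FPKM with MC903. Both were at trace level in all MC903 plus phytic acid libraries and in MC903 replicates 1 and 4, and both were high in MC903 replicate 3. Krt25 had no overlap between the groups, although the nearest libraries held few reads: at most 4 with MC903 plus phytic acid, against 8 in MC903 replicate 4. The sum of the 7 inner root sheath keratins was 0.761 to 1.68 FPKM with MC903 plus phytic acid, against 1.20, 51.8, 3434 and 0.821 FPKM with MC903. Krt28, a type I keratin of this sheath, was the highest of the 7 in each library other than MC903 replicates 2 and 3, with 0.816, 1.17, 0.601 and 0.966 FPKM in MC903 plus phytic acid libraries, against 0.525, 1.17, 158 and 0.461 FPKM in MC903 libraries. None of the 7 was called by limma: Krt71 had a log2 fold change of -3.71 ± 2.12 (SE, n = 4 each, adjusted p = 0.277) and Krt25 of -3.63 ± 1.96 (adjusted p = 0.253). On log2(FPKM + 1), the scale of all fold changes here, changes of low genes are understated.

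The promoters of a type II and a type I keratin of the inner root sheath and of 2 Krtap genes of different families are shown because all 4 genes were high in MC903 replicate 3. Each sequence is the 120 bases before the RefSeq start of the gene on the gene's own strand, which is the minus strand for all 4, from GRCm38.p6. Capitals mark TATAAA, the TATA box motif. Krt71 is from chr15:101743098-101743217 and Krt25 from chr11:99322952-99323071. Krtap8-1, a glycine- and tyrosine-rich protein of the shaft, is from chr16:89487953-89488072, and Krtap4-1, a cysteine-rich protein of the shaft, from chr11:99628240-99628359.
Krt71: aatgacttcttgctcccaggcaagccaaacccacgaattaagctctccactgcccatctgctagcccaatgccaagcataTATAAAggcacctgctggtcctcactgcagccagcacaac
Krt25: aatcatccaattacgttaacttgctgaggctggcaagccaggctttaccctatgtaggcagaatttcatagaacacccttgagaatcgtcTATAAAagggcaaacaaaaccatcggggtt
Krtap8-1: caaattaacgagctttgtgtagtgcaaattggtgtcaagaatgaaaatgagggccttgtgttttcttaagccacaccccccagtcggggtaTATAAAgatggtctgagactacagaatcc
Krtap4-1: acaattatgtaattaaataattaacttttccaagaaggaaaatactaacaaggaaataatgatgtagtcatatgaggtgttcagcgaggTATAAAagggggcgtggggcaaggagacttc
RefSeq promoters of 300 bases (250 before to 50 after the start) were matched to 69 of the 81 genes. TATAAA, searched on both strands, was found in 56 of the 69 (81.2%), against 14.2% of 27025 mouse promoters. With its first base 40 to 15 bases before the start on the gene strand, it was found in 42 of the 69 (60.9%), against 2.33% of all promoters. CTTTGAA, a core that LEF1 and TCF proteins bind, was found on either strand in 15 of the 69 (21.7%), against 5.27% of all promoters. CCAAT was found on either strand in 27 of the 69 (39.1%), against 37.9%. Many Krtap genes are neighbouring copies with like promoters, so these are not independent observations, and a match is a description of letters.

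Hair shaft keratins followed the same pattern at lower levels. The 9 type I genes summed to 0.744 to 1.85 FPKM with MC903 plus phytic acid, against 1.02, 9.19, 608 and 0.594 FPKM with MC903. Krt33a, a type I keratin of the shaft cortex, was the highest of them in MC903 replicate 3, with 0.0714, 0.152, 0.180 and 0.0594 FPKM in MC903 plus phytic acid libraries, against 0, 1.04, 162 and 0.0259 FPKM in MC903 libraries. Its groups overlapped, since MC903 replicates 1 and 4 lay below every MC903 plus phytic acid library. The 6 type II genes summed to 0.409 to 1.58 FPKM with MC903 plus phytic acid, against 1.73, 6.63, 469 and 1.76 FPKM with MC903. Krt83, a type II keratin of the shaft, led them with 0.187, 0.142, 0.126 and 0.133 FPKM in MC903 plus phytic acid libraries, against 0.206, 0.813, 139 and 0.0581 FPKM in MC903 libraries. Krt81, Krt83, Krt86 and Krt87 are close copies, so reads may be split among them and their single values are uncertain.

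**Figure D2:**
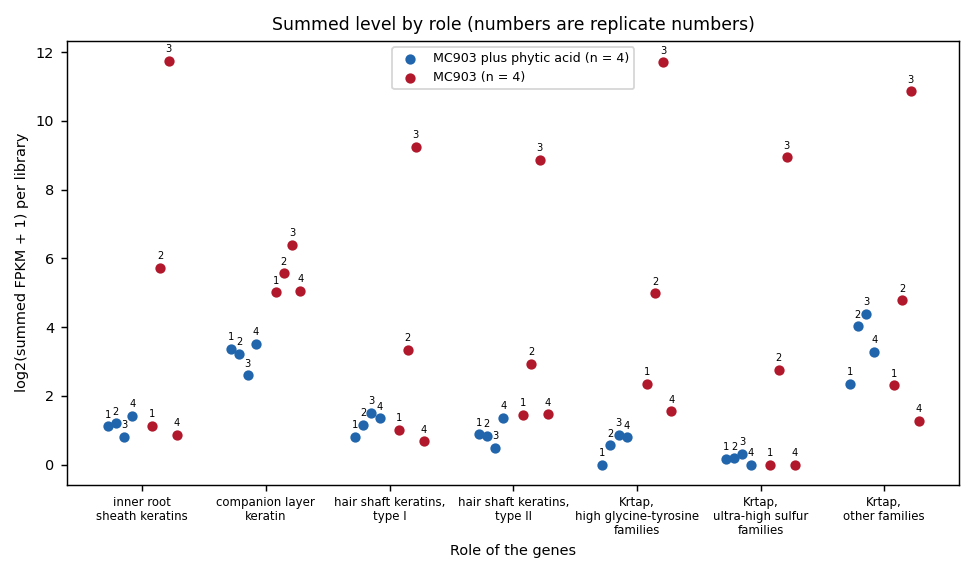
Summed level by role as log2(summed FPKM + 1), 1 point per library with its replicate number, MC903 plus phytic acid (blue) left of MC903 (red). The palate keratin Krt76, at trace level, is not drawn. In the classes drawn other than the companion layer keratin, MC903 replicate 3 is far above the rest and MC903 replicate 2 is second. In most of these, MC903 replicates 1 and 4 lie near or among the MC903 plus phytic acid libraries. They lie above all of those in the glycine- and tyrosine-rich Krtap families (4.13 and 1.94 FPKM, against 0 to 0.819 FPKM). In the type II shaft keratins they do so narrowly (1.73 and 1.76 FPKM, against 0.409 to 1.58 FPKM).

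The glycine- and tyrosine-rich Krtap families 6, 7, 8, 19, 20, 21 and 22 (15 genes) summed to 0, 0.479, 0.819 and 0.736 FPKM with MC903 plus phytic acid, against 4.13, 30.6, 3338 and 1.94 FPKM with MC903. Krtap8-1 had 0, 0, 0.0810 and 0 FPKM in MC903 plus phytic acid libraries, against 0, 6.85, 707 and 0 FPKM in MC903 libraries. Krtap7-1, of the same kind, had 0, 0, 0.0749 and 0 FPKM with MC903 plus phytic acid, against 0, 5.33, 494 and 0 FPKM with MC903. Outside MC903 replicates 2 and 3, the only reads of these genes were 2 of each in MC903 plus phytic acid replicate 3.

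The ultra-high sulfur families 4, 5, 9 and 17 (17 genes), cysteine-rich proteins of cortex and cuticle, summed to 0.129, 0.137, 0.244 and 0 FPKM with MC903 plus phytic acid, against 0, 5.74, 491 and 0 FPKM with MC903. All 8 Krtap4 genes had 0 reads outside MC903 replicates 2 and 3, where they had 102 and 9637 reads in all. Krtap4-1 had 0 FPKM in every MC903 plus phytic acid library, against 0, 0.615, 71.7 and 0 FPKM in the MC903 libraries. Krtap9-3 had 0, 0.0688, 0 and 0 FPKM with MC903 plus phytic acid, against 0, 0.822, 98.0 and 0 FPKM with MC903. Genes of the Krtap4, Krtap5 and Krtap9 families are near-identical repeats, and the treatment of reads shared between copies is unknown here, so family sums are firmer than single genes.

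The other 25 Krtap genes summed to 4.12, 15.2, 20.01 and 8.72 FPKM with MC903 plus phytic acid, against 3.95, 26.4, 1860 and 1.41 FPKM with MC903. Krtap15 led them, with 0 FPKM in every MC903 plus phytic acid library, against 0, 0.830, 356 and 0 FPKM in the MC903 libraries. Krtap16-3 had 0 FPKM in every MC903 plus phytic acid library, against 0, 0.208, 262 and 0 FPKM in the MC903 libraries. Most of the level seen with MC903 plus phytic acid in this class came from Krtap3-2 and Krtap3-3, described last.

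The level in MC903 replicate 2 was a small percentage of that in replicate 3 for most genes. The median over the 79 genes with reads in replicate 3 was 0.899%, and 11 of these had 0 reads in replicate 2. The sums gave 1.51% for inner root sheath keratins, 1.51% for type I and 1.41% for type II shaft keratins, 1.17% for the ultra-high sulfur families and 0.917% for the glycine- and tyrosine-rich families. The 6 Krtap19 genes, glycine- and tyrosine-rich, had 18242 reads in replicate 3 and 16 in replicate 2, or 0.103% by FPKM. Families Krtap27, Krtap29 and Krtap31, with 133 to 270 reads in replicate 3, had 0 reads in replicate 2. The highest percentages were those of Krtap20-2 at 58.7% (from 4 and 2 reads), Krt75 at 55.9%, Krt84 at 48.4% and Krtap21-1 at 11.2%. With 1 library at each level, these are values of a pair of libraries, with no replicate check.

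**Figure D3:**
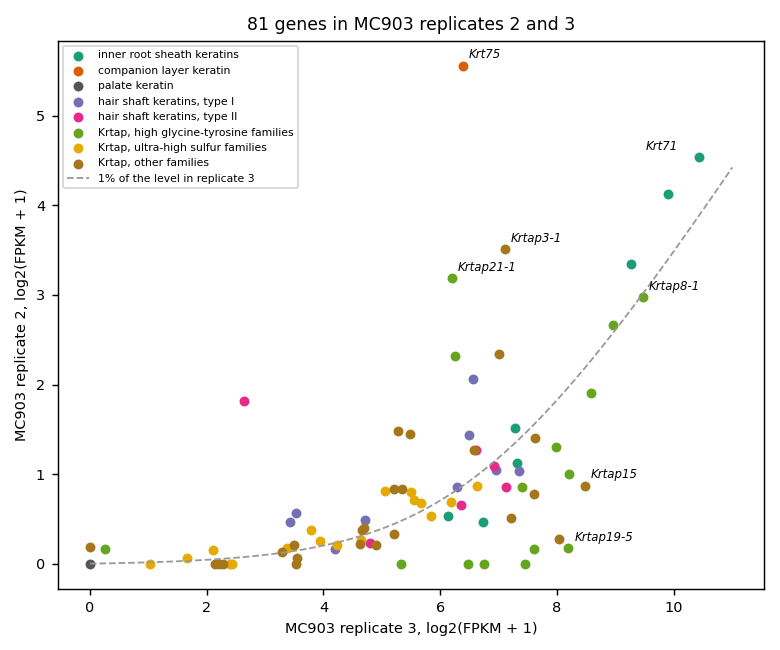
Level of each of the 81 genes in MC903 replicate 3 (x axis) and MC903 replicate 2 (y axis), both log2(FPKM + 1), coloured by role. The dashed line marks 1% of the level in replicate 3; the genes far above it include Krt75, Krtap21-1 and the unlabelled Krt84 (5.22 FPKM in replicate 3, 2.53 FPKM in replicate 2), and Krtap15 and Krtap19-5 lie below it.

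The genes lie in clusters on chromosomes 1, 7, 10, 11, 15 and 16, and genes of every cluster were high in MC903 replicate 3. There the 36 genes on chromosome 11 (type I keratins and Krtap) summed to 3505 FPKM, the 11 on chromosome 15 (type II keratins) to 2185 FPKM and the 24 on chromosome 16 (Krtap) to 4464 FPKM.

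Markers of other cells also moved in MC903 replicate 3. All 10 melanocyte markers were highest there, 7 of them by at least 10 times, with a summed level of 28.4 to 38.8 FPKM with MC903 plus phytic acid, against 47.5, 33.4, 185 and 44.5 FPKM in MC903 replicates 1 to 4. None of the 10 was at 0 in all libraries. Of 15 structural partners of shaft and sheath, 10 were highest there, 6 of them by at least 10 times. Of 17 transcription factors of matrix and sheath, 2 (Msx2 and Lef1) were at least 10 times the next library there. So were 1 of 19 growth signals (Shh, a signal of the growing follicle), 1 of 14 dermal papilla genes (Corin) and 1 of 6 cartilage genes (Acan). Their levels there were low, at 4.10 FPKM for Shh, 1.69 FPKM for Corin and 0.434 FPKM for Acan. In all, 14 of the 17 transcription factors, 10 of the 19 growth signals and 9 of the 14 dermal papilla genes were highest there. Over all genes 17.6% were highest there, and 1.69% were at least 10 times the next library. Genes of follicle stem cells and outer root sheath summed to 303 FPKM in MC903 replicate 3, against 166 to 181 FPKM in the other MC903 libraries. Adipocyte markers summed to 156 FPKM there, against 79.1, 152 and 77.6 FPKM in MC903 replicates 1, 2 and 4. By their sums, skeletal muscle and epidermal markers moved less. Skeletal muscle markers summed to 3304 FPKM there, against 2718 to 3214 FPKM in the other MC903 libraries, and epidermal keratins to 7674 FPKM, against 7192 to 10181 FPKM. Single epidermal keratins moved both ways there. Krt14 had 3061 FPKM, against 5093, 6304 and 6642 FPKM in MC903 replicates 1, 2 and 4. Krt10 had 1705 FPKM, against 287, 885 and 298 FPKM in those libraries. The part of any of these in the level of the set was not tested.

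MC903 plus phytic acid was then compared with MC903 over all 8 libraries, the single contrast of the design, with limma over all 18483 genes. A call is a Benjamini-Hochberg adjusted p under 0.05. Of the 81 genes, 1 was called lower in MC903 plus phytic acid, against 7.49% of all genes tested, and 0 were called higher, against 8.99%. At an unadjusted p under 0.05 limma gave 3 lower and 0 higher. By the mean, 79 genes were lower with MC903 plus phytic acid, and the median log2 fold change was -1.58, against 0.02 over all genes. Without MC903 replicate 3 that median was -0.19, against 0.03, so most of the median difference came with that 1 library. Values of the groups did not overlap, with MC903 plus phytic acid lower, in 8 of the 81 (9.88%), against 9.87% of all genes, and with it higher in 0, against 11.7%. The share without overlap was thus close to that of all genes in the lower direction and below it in the higher direction.

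Krt75, the keratin of the companion layer, was the gene called. It lies at chr15:101563345-101573904 on the minus strand (GRCm38) and had 9.28, 8.37, 5.07 and 10.4 FPKM with MC903 plus phytic acid, against 31.2, 46.2, 82.7 and 32.4 FPKM with MC903. All 4 MC903 libraries were above all 4 MC903 plus phytic acid libraries, and MC903 replicate 3 was the highest by less than for any other sheath keratin. The means were 8.27 ± 2.29 FPKM with MC903 plus phytic acid and 48.2 ± 24.0 FPKM with MC903 (SD, n = 4 each). Krt75 fell by 2.33 on the log2 scale (SE 0.33, limma adjusted p = 0.00482). It stayed called in all 17 alternative settings, with adjusted p of 0.00106 to 0.0413, and without MC903 replicate 3 it fell by 2.04 (adjusted p = 0.00161).

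Krt84, a type II keratin known also from the filiform papillae of the tongue, had 0.632, 0.564, 0.220 and 1.38 FPKM with MC903 plus phytic acid, against 1.41, 2.53, 5.22 and 1.57 FPKM with MC903. The groups did not overlap, by a narrow margin between MC903 plus phytic acid replicate 4 and MC903 replicate 1. Its log2 fold change of -1.05 ± 0.33 (SE, n = 4 each) missed the threshold (limma adjusted p = 0.0655), and it was called in 4 of 17 alternatives, with adjusted p of 0.0327 to 0.173.

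Krtap21-1, Krtap6-2 and Krtap3-1, named after their values were seen, were above trace in all MC903 libraries. Krtap21-1, of a glycine- and tyrosine-rich family, had 0, 0.0802, 0.0715 and 0 FPKM with MC903 plus phytic acid, against 2.52, 8.10, 72.5 and 0.986 FPKM with MC903. Krtap6-2, of another such family, had 0, 0.399, 0.592 and 0.312 FPKM with MC903 plus phytic acid, against 1.61, 3.97, 74.9 and 0.953 FPKM with MC903. Krtap3-1, of a high sulfur family, had 0.163, 0.346, 0.231 and 0.244 FPKM with MC903 plus phytic acid, against 1.25, 10.4, 137 and 0.531 FPKM with MC903. In all 3 the groups did not overlap, with MC903 replicate 4 the lowest of its group at 24, 28 and 12 reads. With all libraries none was called, with log2 fold changes of -2.995 ± 0.99 for Krtap21-1, -2.34 ± 1.05 for Krtap6-2 and -2.79 ± 1.28 for Krtap3-1 (SE, n = 4 each, limma adjusted p = 0.0781, 0.172 and 0.180).

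Without MC903 replicate 3, 72 of the genes had a value, and limma called 4 lower with MC903 plus phytic acid (Krt39, Krt75, Krtap21-1 and Krtap6-2), against 8.77% of all genes, and 1 higher (Krtap3-2), against 13.2%. Without overlap of the groups there were 8 lower, against 12.7% of all genes, and 1 higher, against 21.7%. In that fit Krtap21-1 fell by 1.94 (adjusted p = 0.0212) and Krtap6-2 fell by 1.17 (adjusted p = 0.0351) on the log2 scale. Krt39, a type I keratin of the shaft, fell by 0.26 (SE 0.06, adjusted p = 0.0199), with all values at trace level: 0.0751, 0.0320, 0.128 and 0 FPKM with MC903 plus phytic acid, against 0.193, 0.382 and 0.246 FPKM in MC903 replicates 1, 2 and 4. Without MC903 replicates 2 and 3 together, 42 genes had a value, and 5 were called lower (the same 4 and Krtap3-1), against 7.52% of all genes, and 2 higher (Krt36 and Krtap3-2), against 7.98%.

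**Figure D4:**
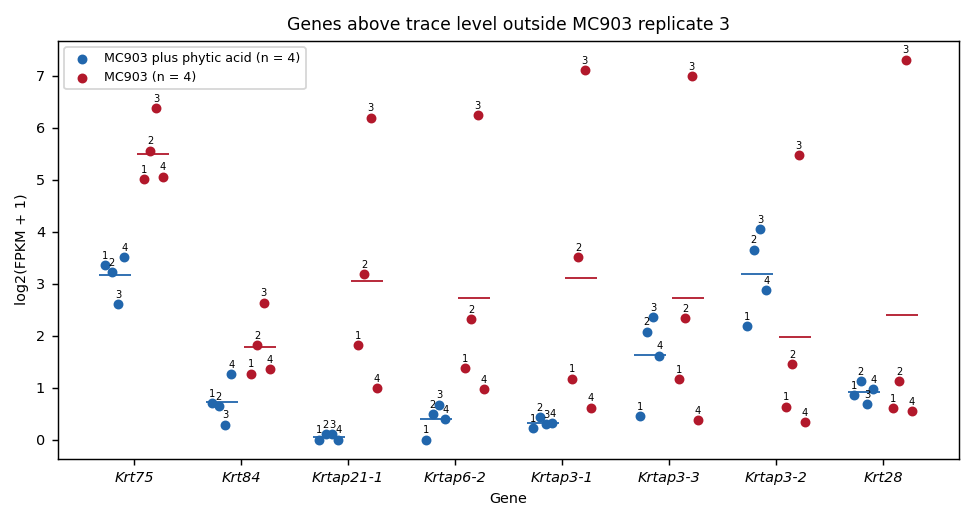
Level of 8 genes above trace outside MC903 replicate 3, as log2(FPKM + 1), 1 point per library with its replicate number, MC903 plus phytic acid (blue) left of MC903 (red); lines are group means on this scale, n = 4 each. Krt75, Krt84, Krtap21-1, Krtap6-2 and Krtap3-1 have no overlap of the groups, and Krtap3-2 is higher with MC903 plus phytic acid than in MC903 replicates 1, 2 and 4.

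Neighbouring copies of the Krtap3 family differed from each other. Krtap3-2 (chr11:99555823-99556853, minus strand, GRCm38) had 3.52, 11.6, 15.5 and 6.35 FPKM with MC903 plus phytic acid, against 0.551, 1.73, 43.5 and 0.259 FPKM with MC903. Every MC903 plus phytic acid library lay above MC903 replicates 1, 2 and 4 and below MC903 replicate 3. Krtap3-3 had 0.367, 3.23, 4.11 and 2.07 FPKM with MC903 plus phytic acid, against 1.24, 4.07, 127 and 0.291 FPKM with MC903, and its groups overlapped. Over all libraries neither was called: the log2 fold change was 1.22 ± 1.09 for Krtap3-2 and -1.10 ± 1.34 for Krtap3-3 (SE, n = 4 each, limma adjusted p = 0.496 and 0.623). Without MC903 replicate 3 Krtap3-2 rose by 2.38 (SE 0.47, adjusted p = 0.0127) and Krtap3-3 had a log2 fold change of 0.33 (adjusted p = 0.721). No test was made of the difference between the copies, and reads shared between copies make single values uncertain.

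The promoters of 6 genes that left the common pattern are given in the same way as the 4 above. Each is the 120 bases before the RefSeq start on the gene strand (minus for all 6), with TATAAA in capitals. They are from chr15:101573905-101574024 for Krt75, chr15:101532821-101532940 for Krt84, chr16:89403775-89403894 for Krtap21-1, chr11:99566631-99566750 for Krtap3-1, chr11:99556854-99556973 for Krtap3-2 and chr11:99550864-99550983 for Krtap3-3.
Krt75: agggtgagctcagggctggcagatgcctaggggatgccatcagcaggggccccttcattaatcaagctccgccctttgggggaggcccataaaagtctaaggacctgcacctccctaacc
Krt84: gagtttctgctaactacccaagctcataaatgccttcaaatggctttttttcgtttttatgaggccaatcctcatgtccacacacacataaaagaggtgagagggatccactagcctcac
Krtap21-1: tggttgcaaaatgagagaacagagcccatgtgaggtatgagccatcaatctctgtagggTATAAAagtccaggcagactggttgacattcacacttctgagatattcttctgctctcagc
Krtap3-1: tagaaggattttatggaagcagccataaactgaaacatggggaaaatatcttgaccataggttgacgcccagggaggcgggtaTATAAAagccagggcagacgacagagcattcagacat
Krtap3-2: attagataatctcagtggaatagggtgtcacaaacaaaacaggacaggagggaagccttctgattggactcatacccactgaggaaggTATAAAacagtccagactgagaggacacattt
Krtap3-3: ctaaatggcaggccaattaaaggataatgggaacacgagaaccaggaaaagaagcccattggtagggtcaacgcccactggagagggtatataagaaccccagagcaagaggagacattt
Krt75, Krt84 and Krtap3-3 do not hold TATAAA in these 120 bases. Genes of the common pattern can lack it too: Krtap14, Krtap15 and Krtap19-1 do not hold it in their 300 bases on either strand. The genes printed were picked, and Krtap6-2, which also left the pattern, is not printed. A difference in TATAAA between the kinds of genes was not tested. In Krtap21-1 the first base of TATAAA is 61 bases before the start, and in Krtap3-1 and Krtap3-2 it is 37 and 32 bases before. The aligned promoters of the 3 Krtap3 genes were identical at 54.1% to 57.0% of positions.

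Other genes of hair growth were read from lists chosen with earlier results of these data known. Of 15 structural partners of shaft and inner root sheath, 6 were called lower with MC903 plus phytic acid and 0 higher (limma; 2 higher at an unadjusted p under 0.05), with a median log2 fold change of -1.59. Tchh, which encodes trichohyalin, a filament-matrix protein of the inner root sheath and medulla, had 17.8, 25.3, 19.5 and 21.9 FPKM with MC903 plus phytic acid, against 458, 539, 904 and 437 FPKM with MC903. Like Krt75, it was high in every MC903 library, and it fell by 4.67 on the log2 scale (SE 0.23, n = 4 each, limma adjusted p = 0.000234). Tchhl1, a relative of trichohyalin, fell by 3.63 (adjusted p = 0.0114) and Tgm3, a transglutaminase that cross-links trichohyalin, fell by 1.87 (adjusted p = 0.00165). Padi3, which converts arginines of trichohyalin to citrulline, fell by 2.65 (adjusted p = 0.0492), a call lost in 8 of 17 alternatives, among them the leaving out of any 1 library except MC903 replicate 3. Without MC903 replicate 3, 7 of the 15 were called lower and 3 higher.

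Of 17 transcription factors of matrix and sheath, 2 were called lower with MC903 plus phytic acid and 0 higher (limma; 1 higher at an unadjusted p under 0.05). Hoxc13, which drives hair keratin and Krtap genes, had 3.17, 3.02, 1.85 and 2.04 FPKM with MC903 plus phytic acid, against 16.97, 13.7, 26.1 and 10.9 FPKM with MC903. Its groups did not overlap, and it fell by 2.30 on the log2 scale (SE 0.26, n = 4 each, limma adjusted p = 0.00235). Hr, the hairless corepressor, fell by 0.60 (adjusted p = 0.0221), a call lost in 6 of 17 alternatives, among them without MC903 plus phytic acid replicate 1 or 4 or MC903 replicate 1, 2 or 4. Without MC903 replicate 3, 2 of the 17 were called higher and 2 lower. Foxn1, needed for shaft differentiation, and Lef1, a mediator of Wnt signals, were not called (adjusted p = 0.337 and 0.545).

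Of 19 growth signals, 3 were called lower (Wnt10a, Bmp2 and Edar) and 1 higher (Fgf7) with MC903 plus phytic acid, and without MC903 replicate 3, 3 were lower and 4 higher. The call of Fgf7 was lost without MC903 plus phytic acid replicate 1 or 4 or MC903 replicate 1, 2 or 4. Of 10 genes of follicle stem cells and outer root sheath, 5 were called higher and 0 lower (limma; 0 lower also at an unadjusted p under 0.05), with a median log2 fold change of 0.61. Krt15, a keratin of the bulge and of basal cells, had 457, 461, 516 and 403 FPKM with MC903 plus phytic acid, against 103, 83.4, 174 and 114 FPKM with MC903, a rise of 1.99 on the log2 scale (SE 0.21, limma adjusted p = 0.0022). Cd34, Lgr6, Nfatc1 and Fst also rose, by 0.46 to 1.11. In this list limma made 2 calls without MC903 replicate 1, 3 without MC903 plus phytic acid replicate 1 or 2 or MC903 replicate 2 or 4, and 7 without MC903 replicate 3. Of 14 dermal papilla genes 0 were called either way (limma; 1 higher and 1 lower at an unadjusted p under 0.05), and 2 were called higher without MC903 replicate 3.

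**Figure D5:**
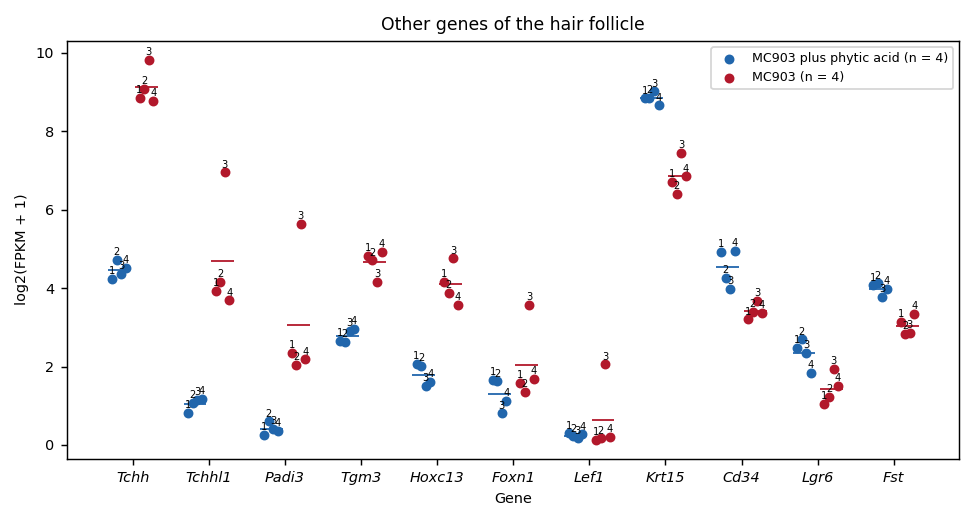
Level of 11 other genes of the follicle as log2(FPKM + 1), 1 point per library with its replicate number, MC903 plus phytic acid (blue) left of MC903 (red); lines are group means on this scale, n = 4 each. Tchh, Tchhl1, Padi3, Tgm3 and Hoxc13 are lower in all MC903 plus phytic acid libraries than in any MC903 library, Krt15, Cd34 and Fst are higher, and Foxn1 and Lef1 overlap apart from MC903 replicate 3.

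Other lists moved with treatment as well. Of 6 skeletal muscle markers, 3 were called higher with MC903 plus phytic acid, and their sum was 6069 to 7499 FPKM with MC903 plus phytic acid, against 2718 to 3304 FPKM with MC903. Of 8 cell cycle genes 5 were called lower (3 without MC903 plus phytic acid replicate 1 or 2 or MC903 replicate 1, 2 or 4), with a sum of 56.8 to 97.8 FPKM with MC903 plus phytic acid, against 116 to 150 FPKM with MC903. Epidermal keratins summed to 5253 to 6276 FPKM with MC903 plus phytic acid, against 7192 to 10181 FPKM with MC903, and 1 of 4, Krt14, was called lower, a call lost when any 1 library except MC903 replicate 3 was left out. Krt10, a keratin of the upper epidermis, differed in the other direction without passing the threshold, with 2596, 2775, 2739 and 1923 FPKM with MC903 plus phytic acid, against 287, 885, 1705 and 298 FPKM with MC903 (log2 fold change 2.05, SE 0.59, limma adjusted p = 0.0505). Krt10 rose by 2.55 without MC903 replicate 3 (limma adjusted p = 0.00761). With MC903 plus phytic acid, 1 of 10 sebaceous gland genes was called higher (Krt79) and 1 lower (Elovl3), and 1 was called higher of 5 adipocyte (Adipoq), 6 cartilage (Comp) and 4 oral, tongue or nail genes (Krt24) each. The adipocyte and the oral, tongue or nail counts were 0 without MC903 plus phytic acid replicate 1, 2 or 4 or MC903 replicate 1, 2 or 4, and the cartilage count was 0 without MC903 replicate 1. Without MC903 replicate 3, 3 adipocyte genes were called higher, and without MC903 plus phytic acid replicate 1, 2 sebaceous gland genes were higher and 2 lower. Of 10 melanocyte genes limma called 0 either way, with 0 higher and 1 lower at an unadjusted p under 0.05. No muscle, cell cycle or epidermal keratin gene was at 0 in all libraries. The part of these in the values of Krt75, Tchh and Hoxc13 was not tested.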

How the data were processed

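RNA was taken from mouse skin with TRIzol and sequenced from SMARTER mRNA libraries, per the labels' protocols. The build mm10 and the tools TopHat2, HISAT2, DESeq and cutadapt appear in the submitters' processing notes. No source used here says which of them made the deposited FPKM values, or with what annotation and strand setting, and overlapping, antisense and near-identical genes are uncertain for that reason. FPKM scales each library to its own total.

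The deposited table had 21959 rows. The 51 without a gene name (0.0159% to 0.0238% of a library's FPKM) were left out, and 21 names that occurred more than once kept their most abundant row; none was a hair keratin or Krtap gene. Multiplying FPKM by GENCODE exon length gave whole reads, within 0.05 in all libraries, for 17509 of 17980 genes (97.4%), and from these the library totals and reads. Of 164 values of 1 to 40 reads in the set, 134 (81.7%) were even, so reads may count fragments more than once. Gene coordinates are from GENCODE for GRCm38, and promoters from RefSeq (GRCm38.p6).

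The 18483 genes with a value above 0 in at least 1 library were fitted on log2(FPKM + 1) with limma 3.58.1 in R 4.3.3 (eBayes with a mean-variance trend), group as the only factor. Tests are two-sided, adjusted by Benjamini-Hochberg over all genes, and fold changes are MC903 plus phytic acid minus MC903. The script recovered known changes in simulated data with independent, normal spread around each gene's mean. Those changes were set only in genes with a mean log2(FPKM + 1) above 1. No library was set far apart from its group, so the simulation does not cover the pattern of most members. Alternatives were a pseudocount of 0.1, filters at 1 FPKM in 4 libraries and at a mean of 1 FPKM, TPM and median-of-ratios scaling, robust eBayes, library weights, a replicate block, leaving out each library, and, chosen after seeing the data, leaving out MC903 replicates 2 and 3 together. Named genes are called members, the 2 most abundant members of each role, keratins with a mean of at least 1 FPKM and, per list of other hair genes, up to 4 called genes; 5 further Krtap genes, and exceptions to counts, were named after their values were seen. The members and gene lists were chosen with earlier results of these data known. Krtap genes were grouped by the number of their family, since no protein sequences were used here.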

Additional observations from a re-analysis of the deposited data

Results flagged for a closer look

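A library is given here where its value lay far from the other 3 of its group. The gap took up more than Dixon's critical share of the range, which chance exceeds in about 1 in 20 groups with normal spread. The rule was applied to FPKM, which holds many zeros, so that rate does not hold here. A gene with reads in 1 library of its group always passes. MC903 replicate 3, singled out after the values were seen, stood apart in this way in 76 of the 81 genes. The share over all genes was not counted, so this is a description. Among the keratins named in the text its FPKM values were Krt25 959, Krt26 69.4, Krt27 614, Krt28 158, Krt31 124, Krt32 25.1, Krt33a 162, Krt33b 89.2, Krt34 93, Krt35 77, Krt36 10.6, Krt39 9.71, Krt40 17.2, Krt71 1373, Krt72 105, Krt73 155, Krt81 96.7, Krt82 26.9, Krt83 139, Krt86 80.4 and Krt87 120. Among the Krtap genes named they were Krtap15 356, Krtap16-3 262, Krtap21-1 72.5, Krtap3-1 137, Krtap3-2 43.5, Krtap3-3 127, Krtap4-1 71.7, Krtap6-2 74.9, Krtap7-1 494, Krtap8-1 707 and Krtap9-3 98. Other follicle genes stood apart there too, with FPKM values of Foxn1 10.9, Lef1 3.17, Padi3 49 and Tchhl1 123. The sums of the set did so in MC903 replicate 3, at 10282.5 FPKM for all genes, 10199.8 FPKM without Krt75 and 10028.9 FPKM without Krt75, Krtap3-2 and Krtap3-3. By role, these sums were 3434 FPKM for inner root sheath keratins, 608 FPKM for type I and 469 FPKM for type II shaft keratins, 3338 FPKM for the glycine- and tyrosine-rich Krtap families, 491 FPKM for the ultra-high sulfur families and 1860 FPKM for the other Krtap genes.

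In MC903 plus phytic acid libraries most such values were traces of a few reads. They were Krt26 at 0.0468 FPKM and Krt72 at 0.0246 FPKM in replicate 1, Krtap9-3 at 0.0688 FPKM in replicate 2, Krtap7-1 at 0.0749 FPKM and Krtap8-1 at 0.0810 FPKM in replicate 3, and Krt34 at 0.564 FPKM and Krt81 at 0.0231 FPKM in replicate 4. Bmp2 was high in MC903 plus phytic acid replicate 2, at 7.61 FPKM against 4.83 to 4.87 FPKM in the other 3.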

How the results depend on the processing

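Krt75 was called lower in all 17 alternatives, and 9 of the 15 named genes called in the whole fit stayed called in all of theirs. Members called lower numbered 1 in the whole fit and 3 with a pseudocount of 0.1, against 1384 and 1428 over all genes. With the filter on the mean they were 3 of the 70 members that passed it (1408 over all genes). With the filter of 1 FPKM in 4 libraries they were 2 of the 4 that passed it (1412 over all genes). They numbered 2 with TPM and with median-of-ratios scaling (1092 and 1764 over all genes). Without MC903 replicates 2 and 3 they were 5 of 42 (1369 over all genes). Members called higher numbered 2 of 42 without MC903 replicates 2 and 3 (1452 over all genes). Leaving out 1 library gave 1 to 4 members lower and 0 to 1 higher, the highest counts without MC903 replicate 3. Over all genes, 1661 were higher and 1384 lower with MC903 plus phytic acid. Library weights gave 3065 higher and 1930 lower, scaling by median of ratios 1457 and 1764, and leaving out 1 library 776 to 2429 higher and 757 to 1608 lower. Of the other hair genes, 6 were called higher (12 with library weights, 13 without MC903 replicates 2 and 3, and 2 to 18 without 1 library).

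The log2 ratio of mean summed FPKM, -6.75 for all members and -7.32 without Krt75, ranged over -7.16 to -1.82 and -7.74 to -1.62 when 1 library was left out, the smallest size being without MC903 replicate 3, and -0.75 and 0.80 without MC903 replicates 2 and 3. Fold changes that changed sign without MC903 replicates 2 and 3 were Krt26 at 0.0205, Krt28 at 0.33, Krt31 at 0.14, Krt32 at 0.53, Krt33a at 0.14, Krt36 at 0.21, Krt72 at 0.00877, Krt73 at 0.16, Krt83 at 0.0218, Krtap3-3 at 0.86, Krtap7-1 at 0.0261, Krtap8-1 at 0.0281, Krtap9-3 at 0.0240 and Lef1 at 0.0622. Leaving out 1 library gave -2.10 to 0.15 for Krt28, -1.12 to 0.42 for Krt32, -1.15 to 0.0272 for Krt36, -1.88 to 0.33 for Krtap3-3 and -0.58 to 0.0643 for Lef1, positive only without MC903 replicate 3. Library weights gave Krt32 at 0.13 and Krtap3-3 at 0.00708. None of these was called in the whole fit.

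The labels do not say whether replicate numbers pair the libraries. Correlations of same-numbered libraries' deviations were -0.193, -0.0896, -0.159 and 0.189, against -0.243 to 0.257 for libraries of unlike number. With 4 libraries per group these values cannot settle whether libraries were paired. With a replicate block, 586 genes were higher and 578 lower, 2 other hair genes were higher, and the count of members called was unchanged. The cause of these changes was not tested. Depth limits genes with few reads, and 4 libraries per group with 1 standing far apart limit every mean of this set.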

Other observations

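Beside the set, 239 of 18402 other genes were at least 10 times as high in MC903 replicate 3 as in the next library. This counts genes at 0 in every other library, and many of the 239 were traces of that kind, such as Vmn1r188 at 0.00314 FPKM. Others were far above trace in MC903 replicate 3, such as Gm10229 at 460 FPKM, Gm49425 at 172 FPKM and 1110025L11Rik at 168 FPKM. Prr9, a proline-rich protein found in hair, was the highest of the 239. It had 5.83, 3.99, 5.76 and 9.16 FPKM with MC903 plus phytic acid, against 10.1, 23.2, 846 and 5.31 FPKM with MC903. Crnn, the cornulin of stratified epithelia, had 2.20, 1.12, 1.53 and 1.42 FPKM with MC903 plus phytic acid, against 3.20, 2.94, 102 and 1.20 FPKM with MC903. Gprc5d, a receptor-like protein known from hair-forming cells, had 0.0354, 0, 0 and 0 FPKM with MC903 plus phytic acid, against 0, 0.383, 61.2 and 0.0386 FPKM with MC903. The genes named here were chosen after their values were seen. Prr9 and Gprc5d share the order of the shaft keratins, with MC903 replicate 3 first and MC903 replicate 2 second. Crnn was also highest in MC903 replicate 3, but it was slightly higher in MC903 replicate 1 than in replicate 2.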
